A study of Mus musculus with 17 samples.

Results

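Foxp3 was followed across 3 Nfkbid genotypes in regulatory T cells (Tregs) sorted from mouse spleen. It is 1 gene, chosen by its name, among the 47643 rows of a table of expected counts. The libraries came from NOD mice, a strain prone to autoimmune diabetes, and the cells were CD4+ enriched and then sorted as GFP+ by a Foxp3-GFP reporter that every group carried. The 6 transgenic libraries were from the genotype NOD-60A Tg+, which overexpresses Nfkbid, the 5 knockout libraries from NOD- Nfkbid-KO, and the 6 control libraries from Control NOD. The promoter that drives the transgene, the knockout allele, the reporter construct, age and sex are not stated in the sources used here. The transgenic libraries were made from single samples, whereas those of knockout and control mice were pools of 2, so any comparison with the transgenic group also sets unpooled against pooled libraries.

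Foxp3 is a forkhead transcription factor that defines Tregs, and its loss in mice or people leads to severe autoimmunity. Its transcription depends on T cell receptor and IL-2 signals, and on conserved noncoding elements of the locus that bind factors such as NF-kB c-Rel, Runx1 with Cbfb, and Stat5. Nfkbid encodes IkBNS, an atypical nuclear IkB protein that acts with NF-kB subunits and is known in mouse to promote Foxp3 induction in developing Tregs. The sort gate itself selected cells on Foxp3 reporter signal, so the values below are levels within cells already chosen as Foxp3-expressing and say nothing about how many Tregs each genotype had. In bulk libraries, fewer cells expressing a gene and less of its RNA per cell cannot be told apart.

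The Foxp3 gene, ENSMUSG00000039521, lies on the plus strand of chromosome X at 7573644 to 7595245 in GRCm38. The row counts 4 transcripts that run from 7579669 to 7595245 and together cover 3998 exon bases, of which 2346 are in the last exon. The bases just before the 2 RefSeq start sites of Foxp3 are shown because they are where transcripts counted in the row begin, and because both windows lie inside the last annotated exon of the noncoding RNA Flicr, at 7577908 to 7581027 on the same strand. Capitals mark a TATAAA, 32 bases before the first start. The sequences are from RefSeq, GRCm38.p6, plus strand, 5′ to 3′.
Foxp3 start 1, chrX:7579426-7579675: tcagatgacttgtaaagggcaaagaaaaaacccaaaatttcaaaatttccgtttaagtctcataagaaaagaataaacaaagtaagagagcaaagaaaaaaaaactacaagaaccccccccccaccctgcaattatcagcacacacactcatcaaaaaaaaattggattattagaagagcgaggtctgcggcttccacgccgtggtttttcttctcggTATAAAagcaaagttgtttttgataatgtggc
Foxp3 start 2, chrX:7580233-7580482: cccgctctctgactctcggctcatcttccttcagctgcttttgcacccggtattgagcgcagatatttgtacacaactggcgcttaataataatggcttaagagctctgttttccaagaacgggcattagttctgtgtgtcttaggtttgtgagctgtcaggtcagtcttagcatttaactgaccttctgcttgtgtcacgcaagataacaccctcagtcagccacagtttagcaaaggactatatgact

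The first window was 37.6% G and C and the second 46.0%. TATAAA, searched on both strands, was in the first window and not in the second, and 12.4% of 32851 promoter windows of this length held it.

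How far the row can be taken as Foxp3 itself has a limit whose size at this locus is not known. Many rows of the table do not hold the counts of the gene they name, and the mismatch is greater away from chromosome starts. Ribosomal protein genes, which every cell transcribes highly, had a mean of at least 100 library-scaled counts (CPM) in 3 of 3 rows starting in the first 5 Mb of a chromosome, in 0 of 1 row from 5 to 10 Mb, and in 4 of 76 rows beyond 10 Mb. Foxp3 starts at 7.6 Mb. If the row's exons were moved 1 kb along the chromosome, 41.9% of its bases would still lie on Foxp3 exons, and at 2 kb 20.6% would. The shift at this locus was not measured, so the values are those of the Foxp3 row, and other rows are likewise called by their names only.

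Exon overlap was a further limit. The row shares 274 of its exon bases, 6.85%, with Flicr on the same strand, 590 bases, 14.8%, with Ccdc22 on the opposite strand, and 373 bases, 9.33%, with the noncoding Gm36995, also opposite. The sources used here do not say whether the counting used strand, so reads in these bases cannot be assigned to 1 of the overlapping genes.

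**Figure D1:**
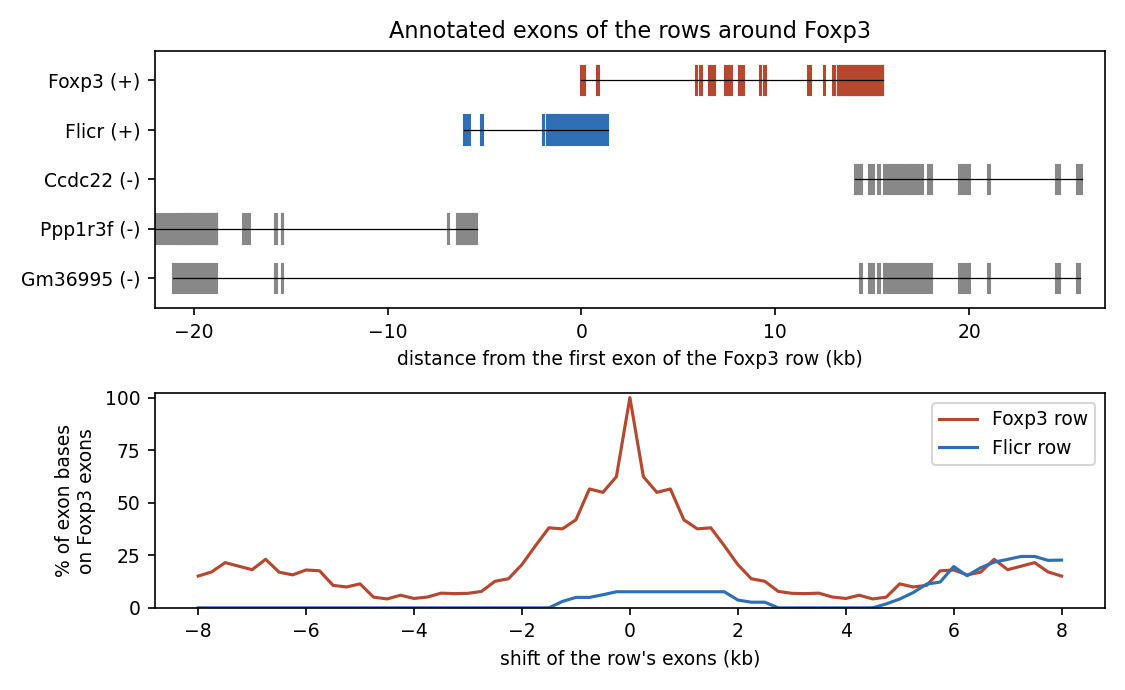
The upper panel maps annotated exons (boxes) of the Foxp3 row and overlapping or adjacent rows by distance in kb from the first exon of the Foxp3 row, with strand in brackets; the left end of Ppp1r3f is cropped. The lower panel gives the percentage of each row's exon bases that would lie on Foxp3 exons after a shift of the row, which for the Foxp3 row is 41.9% at 1 kb.

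Library totals ran from 3133388 to 4726615 counts, at which 3 counts correspond to 0.635 to 0.957 CPM. Transgenic 1 and knockout 2, 3 and 5 stood apart from the other 13 libraries. On the first principal component, computed without the Foxp3 locus and holding 31.8% of the variance, they lay at -29.1, -78.7, -35.7 and -67.9, against 4.11 to 34.2 for the rest. Mitochondrially encoded rows took 24.8% of counts in transgenic 1 and 25.6%, 25.3% and 28.2% in knockout 2, 3 and 5, against 19.7% to 24.1% in the other 13. The TMM factor, which scales each library to the bulk of its rows, was 0.864 in transgenic 1, 0.864 in knockout 2 and 0.859 in knockout 5. No control library was among them, so values are also given without the libraries that stood apart.

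The Nfkbid row, which would check the genotypes, starts at 30.4 Mb on chromosome 7 and is among those whose name is insecure. It held 7.04 to 11.1 CPM in transgenic, 2.24 to 8.31 CPM in knockout and 3.09 to 5.41 CPM in control libraries, so it does not show the loss that the knockout label names.

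The Foxp3 row was abundant in all 3 genotypes, and its group means lay within 33.5 CPM of each other. It ranked 442 among the 9986 rows tested, and every library had 792 or more counts of it. The transgenic libraries 1 to 6 had 286.4, 344.5, 337.3, 309.6, 328.0 and 304.5 TMM-scaled CPM. The knockout libraries 1 to 5 had 343.4, 257.9, 356.4, 321.7 and 285.5 CPM, and the control libraries 1 to 6 had 325.8, 369.7, 338.6, 346.7, 340.1 and 357.9 CPM. Both mutant groups reached down further than the controls: 3 of the 6 transgenic and 3 of the 5 knockout libraries were below the lowest control. The groups overlapped in every pairing.

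The Foxp3 row averaged 318.4 ± 22.0 CPM in transgenic libraries (SD, n = 6), 313.0 ± 40.9 CPM in knockout libraries (SD, n = 5) and 346.5 ± 15.5 CPM in control libraries (SD, n = 6). The order of the means was therefore control, transgenic, knockout, and the gap between transgenic and knockout was smaller than either group's SD. The knockout libraries were the most scattered, with a coefficient of variation of 13.1%, against 6.92% in transgenic and 4.48% in control libraries, where counting alone would give 3.12%, 3.13% and 2.80% for knockout, transgenic and control.

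**Figure D2:**
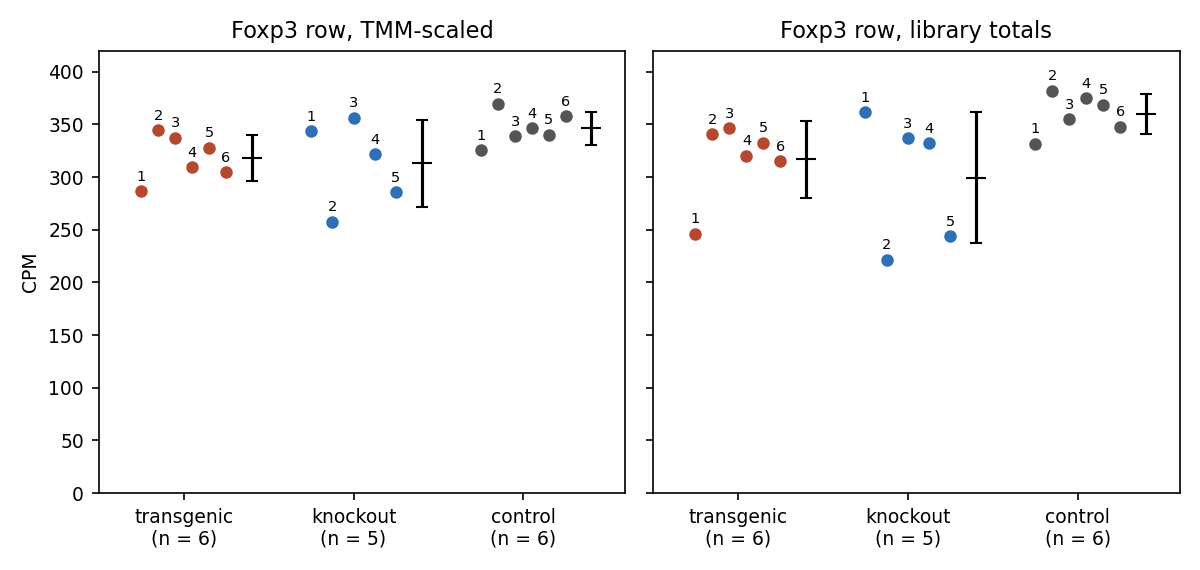
CPM of the Foxp3 row in each library, scaled by TMM factors (left) or by library totals (right); points are libraries with their replicate numbers, and bars to the right of each group are the mean ± SD. Transgenic 1, knockout 2 and knockout 5 are the 3 lowest libraries on both scales, and the 6 control libraries lie between 325.8 and 369.7 CPM on the TMM scale.

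Foxp3 did not pass the test across all rows in transgenic against control. The log2 fold change of Foxp3 was -0.12 with a standard error of 0.09 and a 95% interval of -0.30 to 0.06, which is 0.919-fold with an interval of 0.810 to 1.04 (edgeR quasi-likelihood test, Benjamini-Hochberg adjusted p = 0.510). Of all rows tested, 7.39% passed the adjusted threshold of 0.05 in this comparison, 5.22% as higher and 2.17% as lower. The 217 lower rows were 143 without transgenic 5, 140 without control 3, 459 without transgenic 1 and knockout 2 and 5, and 668 with knockout 3 left out as well. For Foxp3, 35.7% of all rows had a p as small. By its libraries alone, the transgenic mean was 28.1 CPM below control, with transgenic higher in 5 of 36 pairs of libraries (exact two-sided permutation test, p = 0.0325, adjusted over the 3 comparisons p = 0.0974). On library totals instead of TMM the means were 316.9 ± 36.7 CPM in transgenic and 360.1 ± 18.8 CPM in control libraries (SD, n = 6 each), and the same exact test gave p = 0.0130, adjusted p = 0.0390. The 2 scales thus put this small difference on opposite sides of the threshold in the permutation test, while edgeR on library totals gave -0.18 on the log2 scale (adjusted p = 0.403). With 1 library left out, the unadjusted exact permutation p ran from 0.0173 to 0.0649 on the TMM scale, where it missed 0.05 without transgenic 1, 4 or 6 or control 2, 4 or 6, and from 0.00433 to 0.0260 on library totals.

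Knockout libraries gave a like estimate against control, with a wider spread. The log2 fold change of Foxp3 was -0.15 with a standard error of 0.09 and a 95% interval of -0.34 to 0.05, which is 0.904-fold with an interval of 0.791 to 1.03 (edgeR adjusted p = 0.346). In this comparison 1.89% of all rows passed, 0.881% as higher and 1.01% as lower. That count, 189 rows, was set strongly by single libraries: it was 518 without transgenic 1, which enters through the shared spread, 806 and 1118 without knockout 1 and 4, 111, 103 and 88 without knockout 2, 3 and 5, and 87, 92, 107 and 95 without control 1, 3, 4 and 5. The knockout mean of Foxp3 was 33.5 CPM below control, with knockout higher in 7 of 30 pairs (exact permutation test, p = 0.108, adjusted p = 0.162). On library totals it was 60.7 CPM below (exact permutation test, p = 0.0433, adjusted p = 0.0649). With 1 library left out, the unadjusted exact p on library totals ran from 0.0238 to 0.0952 and missed 0.05 in 9 of 11 cases, all but those without knockout 1 or control 1. On the TMM scale it ran from 0.0476, without knockout 3, to 0.238.

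Most of the knockout shortfall sat in knockout 2 and 5. Knockout 1, 3 and 4 averaged 340.5 ± 17.5 CPM of Foxp3 (SD, n = 3), within 1 SD of the control mean. Knockout 2 and 5 were the lowest of their group, so leaving them out had to raise its mean. Knockout 3, which also stood apart, was kept and had 356.4 CPM, the highest of the group. These libraries were left out after the data were seen, as knockout 2 and 5 were in the fit below. With transgenic 1 and knockout 2 and 5 left out of the fit, the log2 fold change was -0.03 for knockout against control (edgeR adjusted p = 0.920) and -0.08 for transgenic against control (adjusted p = 0.524). The same 3 libraries had the 3 lowest TMM factors, and the part of this in the Foxp3 difference was not tested.

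Transgenic against knockout, which sets the 2 altered genotypes against each other, gave a log2 fold change of 0.02 for Foxp3, with a standard error of 0.09 and a 95% interval of -0.17 to 0.22 (edgeR adjusted p = 0.904). The direction turned to -0.035 without knockout 2 and to -0.0053 without knockout 5. The interval leaves room for 0.890-fold to 1.16-fold, and 10.7% of all rows passed in this comparison, 6.34% as higher and 4.33% as lower. That count, 1065 rows, was 1641 without transgenic 1. The exact permutation test of the means gave p = 0.762, with a difference of 5.41 CPM. Over the 3 groups together the adjusted p was 0.427 (edgeR), where 12.4% of all rows passed.

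**Figure D3:**
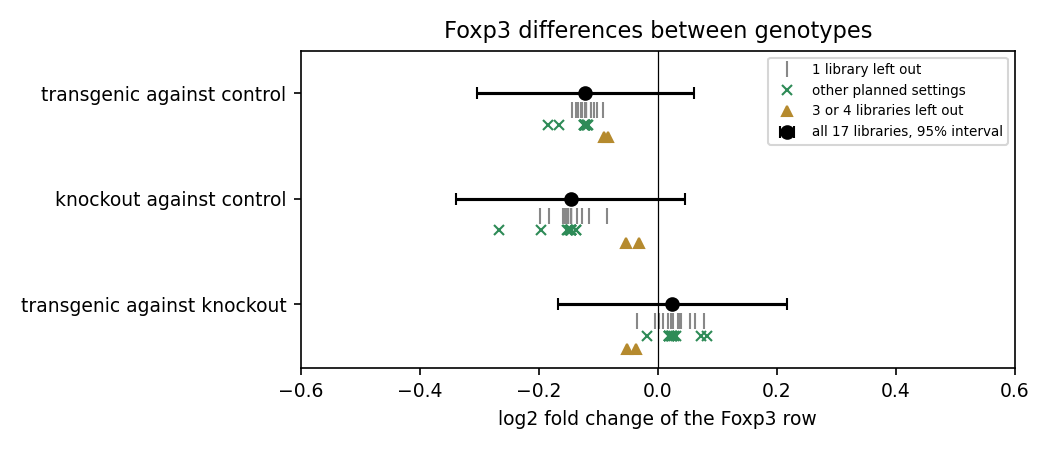
Log2 fold change of the Foxp3 row in the 3 comparisons (first group over second), with the 95% interval from all 17 libraries as a bar and the values under other settings as ticks, crosses and triangles below it. Every interval includes 0, and without 3 or 4 libraries that stood apart the knockout difference from control is closer to 0 than with all 17.

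Within groups the Foxp3 row was steadier than most rows of its abundance. Its within-group standard deviation was 0.13 on the log2 scale. Among the 499 rows that averaged 200 to 500 CPM, the median was 0.20, and 92 of them, 18.4%, Foxp3 included, varied as little or less.

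Flicr, a long noncoding RNA beside Foxp3 that is known in mouse to dampen Foxp3 expression in Tregs, varied more than Foxp3 among the transgenic and knockout libraries and slightly less among controls, with a coefficient of variation of 25.5%, 45.8% and 3.84% in transgenic, knockout and control. The Flicr row had a lowest value of 298.5, a median of 645.5 and a highest of 706.7 CPM in transgenic libraries, 742.4, 237.7, 525.2, 698.8 and 294.7 CPM in knockout libraries 1 to 5, and 670.4, 702.8 and 739.9 CPM as lowest, median and highest in control libraries. The controls were tightly grouped, at 700.9 ± 26.9 CPM (SD, n = 6). Transgenic 1 and knockout 2 and 5 were the lowest 3 of the 17, at less than 300 CPM, with knockout 3 next. The mean difference from control did not pass the test for transgenic, with a log2 fold change of -0.24 and a standard error of 0.23 (edgeR adjusted p = 0.648), or for knockout, with -0.49 and 0.24 (adjusted p = 0.232). Transgenic against knockout gave 0.25 with a standard error of 0.24 (adjusted p = 0.560).

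Transgenic 1 and knockout 2 and 5 were the 3 lowest libraries in both rows, while knockout 3 was low in Flicr alone. There were 1.04 Flicr counts per Foxp3 count in transgenic 1, 0.922 in knockout 2, 1.03 in knockout 5 and 1.47 in knockout 3, against 1.71 to 2.21 in the other 13 libraries. The sum of both rows lay at 584.9 to 1044 CPM in transgenic libraries, at 495.6 to 1086 CPM in knockout and at 1028 to 1078 CPM in control libraries. Controls varied by 1.66% in the sum, less than in either row alone.

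**Figure D4:**
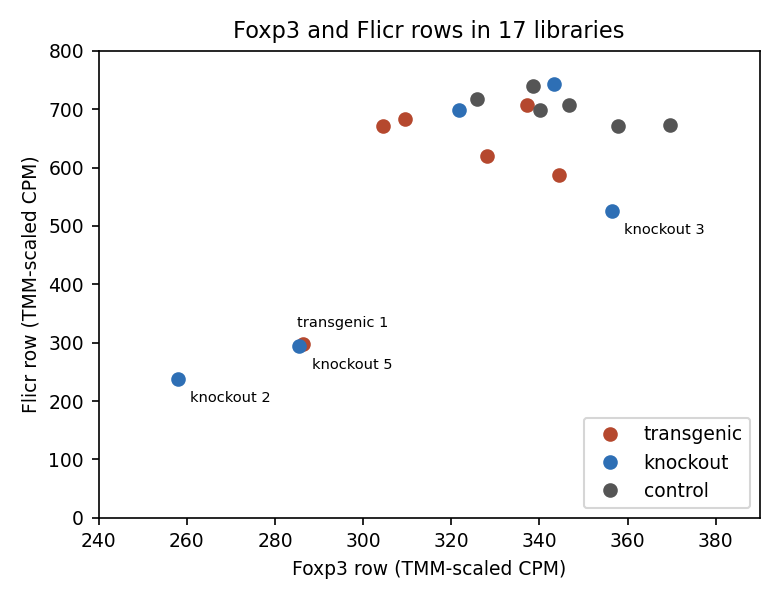
TMM-scaled CPM of the Foxp3 row (horizontal axis, starting at 240 CPM) and the Flicr row (vertical axis) in the 17 libraries, coloured by genotype; the 4 libraries lowest in Flicr are named. Transgenic 1 and knockout 2 and 5 have under 300 CPM of Flicr and the 3 lowest Foxp3 values, and knockout 3 has 525.2 CPM of Flicr with 356.4 CPM of Foxp3.

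Foxp3 shares its neighbourhood with 15 other rows within 100 kb, and 9 of the 16 were abundant enough to test. The untested rows were Gm14381, Gm14395, Gm14394, Gm23082, Cacna1f, Magix and Gm6079, with at most 23 counts in all libraries together. In transgenic against control 2 of the 9 passed, both higher, beside 5.22% of all rows. Syp, which encodes the synaptic vesicle protein synaptophysin, averaged 42.7 ± 6.77 CPM in transgenic (SD, n = 6), 26.6 ± 6.83 in knockout (n = 5) and 21.4 ± 3.49 CPM in control libraries (n = 6). Its log2 fold change was 0.99 with a standard error of 0.16 against control (edgeR adjusted p = 2.75e-04) and 0.68 with 0.17 against knockout (adjusted p = 0.0111). The lowest transgenic value, 34.0 CPM, was above the highest control, 25.4 CPM, and below the highest knockout, 37.1 CPM.

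The adjacent Gm14703 row, a noncoding transcript that overlaps Syp on the opposite strand, rose likewise in transgenic libraries. It averaged 163 ± 34.1 CPM in transgenic, 117 ± 25.6 in knockout and 97.3 ± 9.85 CPM in control libraries. The log2 fold change was 0.75 against control (edgeR adjusted p = 0.00116) and 0.49 against knockout (adjusted p = 0.0351), and the second call was lost in 10 of 30 alternatives. No row of the 9 passed in knockout against control, at an adjusted p of 0.232 or more, and with 1.89% of all rows passing there, 0 of 9 is near the background.

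The rows next to Foxp3 on either side did not pass in any comparison. Ppp1r3f, a regulatory subunit of protein phosphatase 1, averaged 105 CPM in transgenic, 110 in knockout and 102 CPM in control libraries. Ccdc22, a subunit of a complex that takes part in endosomal recycling and NF-kB regulation, averaged 22.1, 25.7 and 26.5 CPM in transgenic, knockout and control. Gm36995 averaged 57.9, 51.0 and 62.3 CPM in the same groups, and Prickle3 and Plp2 averaged 314 and 24.4 in transgenic, 347 and 21.1 in knockout, and 317 and 22.6 CPM in control.

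The genes that control Foxp3, bind with it or respond to it were taken as 8 lists with 109 distinct genes, of which 80 rows could be tested. Only 8 of the 80 start in the first 10 Mb of a chromosome, as Foxp3 does, and of these only Penk and Dnmt3a start in the first 5 Mb, where the ribosomal protein rows were high as named. Among the 8, Penk passed in all 3 comparisons and no other did, beside 7.39%, 1.89% and 10.7% of all rows in transgenic against control, knockout against control and transgenic against knockout. Penk encodes proenkephalin, the precursor of opioid peptides that Tregs make. Its row averaged 461 ± 45.2 CPM in transgenic (SD, n = 6), 183 ± 61.2 in knockout (n = 5) and 69.5 ± 10.2 CPM in control libraries (n = 6), and the 3 groups did not overlap. The log2 fold change was 2.73 with a standard error of 0.17 in transgenic and 1.39 with 0.17 in knockout, both against control (edgeR adjusted p = 4.77e-10 and 3.77e-05). Penk thus lay above control in both mutant genotypes, beside Foxp3 estimates of -0.12 and -0.15 in the same libraries.

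The other tested list rows in the first 10 Mb came from several of the lists. Rela, the NF-kB subunit p65, averaged 70.2, 66.6 and 69.2 CPM in transgenic, knockout and control libraries. Its log2 fold change against control was 0.02 in transgenic and -0.05 in knockout. Gata3, a transcription factor that helps maintain Foxp3 in activated Tregs, averaged 102, 105 and 119 CPM in the same order. Dnmt3a, a DNA methyltransferase, averaged 556, 482 and 553 CPM. Usp7, a deubiquitinase known to stabilise Foxp3 protein, averaged 162, 152 and 183 CPM, and Kat5, an acetyltransferase of Foxp3, 15.2, 22.2 and 19.4 CPM. Xbp1, a factor of the unfolded protein response, averaged 382, 470 and 308 CPM, with a log2 fold change of 0.61 in knockout against control (edgeR adjusted p = 0.0510). Il7r, the IL-7 receptor that Tregs hold low, averaged 211, 251 and 276 CPM.

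**Figure D5:**
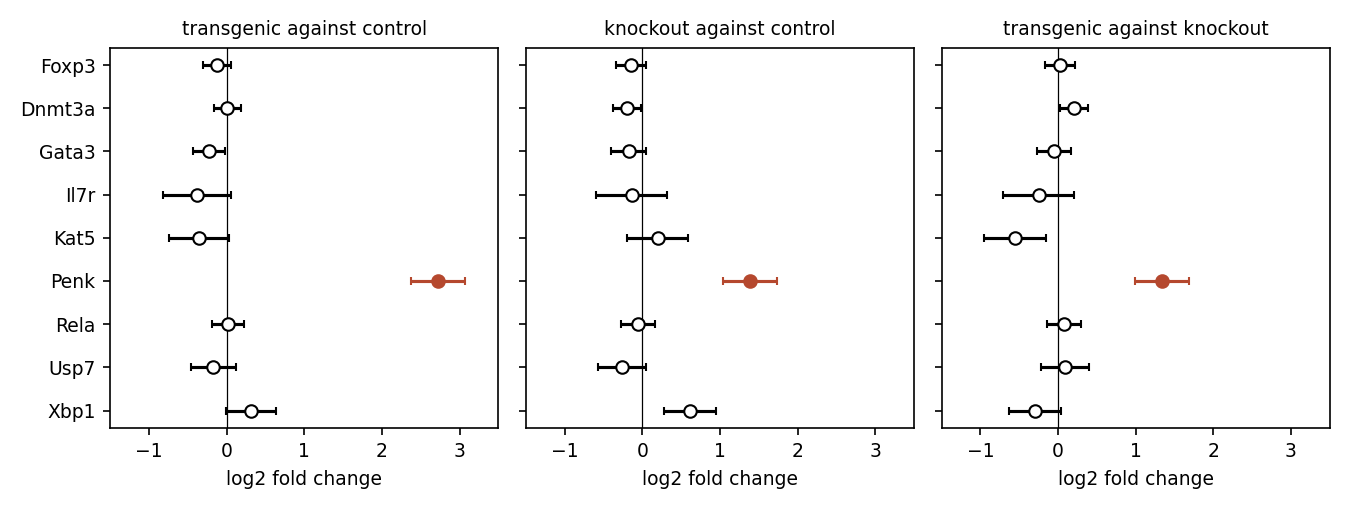
Log2 fold changes with 95% intervals of the Foxp3 row and of the 8 tested list rows that start in the first 10 Mb of a chromosome, in the 3 comparisons (first group over second); filled points passed the adjusted threshold of 0.05. Penk is the one filled row in each panel, at 2.73, 1.39 and 1.33, and the Foxp3 intervals are among the narrowest.

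Among rows that start beyond the first 10 Mb, 9 further rows of these lists were higher and 4 lower in transgenic against control, 1 and 4 in knockout against control, and 10 and 3 in transgenic against knockout. The shares of all rows were 5.22% higher and 2.17% lower, 0.881% and 1.01%, and 6.34% and 4.33% in these comparisons. With transgenic 1 and knockout 2 and 5 left out, all 8 lists together had 12 higher and 8 lower, 1 and 5, and 11 and 2 in those comparisons, against 10 and 4, 2 and 4, and 11 and 3 with all 17 libraries. Calls among all rows moved too in that fit. In transgenic against control they were 821 higher and 459 lower, against 521 and 217 with all 17 libraries. In either direction they were 144 in knockout against control and 1125 in transgenic against knockout, against 189 and 1065. The rise of list calls in transgenic against control was therefore not shown to be particular to the lists.

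Rows named for inducers of Foxp3 passed at about the share of all rows in transgenic against control, 7.39%. Of 17 tested transcription factors that induce or maintain it, Satb1, a chromatin organiser that opens Treg enhancers during development, passed as lower in transgenic against control, with a log2 fold change of -0.50 (edgeR adjusted p = 0.00153), and none passed in knockout against control, where 1.89% of all rows did. Kmt2d, a histone methyltransferase, passed in transgenic against knockout at -0.48 (adjusted p = 0.0385), a call lost in 12 of 30 alternatives. Their median log2 fold change was -0.19 in transgenic against control and 0.04 in knockout against control, beside medians of -0.01 and -0.02 over all rows. None of the 9 tested rows of IL-2, TGF-beta and T cell receptor inputs passed, beside 7.39%, 1.89% and 10.7% of all rows in the 3 comparisons, shares at which 0 of 9 is near the background. Il2ra, the high-affinity IL-2 receptor chain CD25, averaged 142, 175 and 134 CPM in transgenic, knockout and control libraries.

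Of 13 tested NF-kB and IkB rows, 3 passed as higher in transgenic against control, beside 5.22% of all rows, and none in knockout against control, beside 1.89%. Bcl3, another nuclear IkB protein, had a log2 fold change of 1.25 (edgeR adjusted p = 1.64e-04), Relb, a subunit of the alternative NF-kB pathway, 0.44 (adjusted p = 0.0349), and Nfkbid itself 0.94 (adjusted p = 0.0455). The last 2 calls were lost in 13 and 15 of 30 alternatives. In transgenic against knockout, Bcl3 was higher at 1.97 and Nfkbiz, also a nuclear IkB, lower at -0.57 (adjusted p = 1.98e-06 and 0.0342), the Nfkbiz call being lost in 10 of 30.

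Of 12 tested rows for locus methylation and Foxp3 protein stability, Hdac9, a histone deacetylase that restrains Treg function, passed in every comparison. It averaged 10.1 CPM in transgenic, 0.165 in knockout and 3.28 CPM in control libraries, and the knockout libraries lay between 0 and 0.559 CPM, below the level of 3 counts. No other row of that list passed. The shares of all rows were 7.39% in transgenic against control, 1.89% in knockout against control and 10.7% in transgenic against knockout. Rel, encoding c-Rel, averaged 41.7, 30.5 and 40.4 CPM in transgenic, knockout and control, with no call.

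Partners of Foxp3 gave mixed directions. Ikzf2, encoding Helios, a factor that stabilises Tregs, passed as higher in both mutants, at 0.48 in transgenic (edgeR adjusted p = 0.0207) and 0.53 in knockout against control (adjusted p = 0.0407), and these calls were lost in 3 and 19 of 30 alternatives. Without control 2 or control 3 the adjusted p in transgenic was 0.0504 and 0.0543. Prdm1, encoding the effector regulator Blimp-1, averaged 42.4, 7.22 and 25.8 CPM in transgenic, knockout and control libraries, with -1.82 in knockout against control and 2.53 in transgenic against knockout (adjusted p = 0.00142 and 4.41e-06). In transgenic against knockout Irf4, a partner needed by effector Tregs, passed at 0.66 and Ikzf3 at 0.92 (adjusted p = 0.0150 and 0.0310), the Ikzf3 call being lost in 10 of 30. Of 13 tested, 1 was higher and 0 lower in transgenic against control, 1 and 1 in knockout against control, and 3 and 0 in transgenic against knockout, beside 7.39%, 1.89% and 10.7% of all rows in either direction.

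Rows of genes known as raised by Foxp3 passed in both directions, with 12 of 22 testable. In transgenic against control 5 were higher and 2 lower, beside 5.22% and 2.17% of all rows: besides Penk and Ikzf2, Entpd1 (CD39) had a log2 fold change of 1.10, Izumo1r (the folate receptor FR4) 0.58 and Nt5e (CD73) 0.50, while Nrp1 had -1.20 and Il1rl1, the IL-33 receptor, -0.60. In knockout against control 2 were higher and 2 lower, beside 0.881% and 1.01% of all rows, with Entpd1 at -1.55 and Izumo1r at -0.35, the Izumo1r call being lost in 20 of 30 alternatives. In transgenic against knockout 5 were higher, beside 6.34% of all rows, including Ctla4, a coinhibitory receptor that Foxp3 induces, at 0.75 (edgeR adjusted p = 0.0212), and Nrp1 was lower at -1.21, beside 4.33%. The median was 0.31 in transgenic against control and -0.00063 in knockout against control. The Nrp1 calls were lost in 7 and 8 of 30 alternatives, and those of Ctla4 and of Entpd1 in knockout in 2 each.

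Of 16 genes known as lowered by Foxp3, 8 could be tested. In transgenic against control Tnfsf8, the CD30 ligand, was higher at 0.54 and Satb1 was lower at -0.50 (edgeR adjusted p = 0.00704 and 0.00153). None passed in knockout against control, beside 1.89% of all rows, and Tnfsf8 alone passed in transgenic against knockout, at 1.02, beside 10.7%. Rows of both lists thus passed in comparisons in which the Foxp3 row did not.

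The FOXP relatives gave no call with all 17 libraries. Foxp1, which maintains quiescence in T cells, averaged 11.9, 19.4 and 22.1 CPM in transgenic, knockout and control libraries, a log2 fold change of -0.89 in transgenic against control (edgeR adjusted p = 0.0680). With transgenic 1 and knockout 2 and 5 left out, 1 of the 2 tested FOXP rows passed as lower in that comparison. In that fit 459 of all rows passed as lower, against 217 with all 17 libraries. Foxp4 averaged 3.30, 4.49 and 4.38 CPM, and Foxp2 was too low to test.

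Markers of other spleen cells were read to check the sort, with the limit that all of these marker rows but Ncr1 start beyond 10 Mb. Of 6 B cell rows 3 could be tested, and they summed to 179 to 275 CPM in transgenic libraries, against 171 to 260 CPM in knockout and 218 to 304 CPM in control libraries. Cd79b was at 0 in every library, and Ighm passed in transgenic against knockout alone, at 2.70 on the log2 scale (edgeR adjusted p = 0.0103). CD8 T cell rows, 2 of 4 tested, held 3.46 to 30.2, 2.62 to 35.5 and 14.3 to 18.8 CPM in transgenic, knockout and control, with no call. Myeloid rows, 1 of 6 tested, held 9.67 to 16.97, 9.69 to 20.6 and 14.1 to 19.5 CPM, with Cst3 and S100a8 at 0 throughout. Erythroid rows were at 0.866 CPM or less, with Hba-a1 and Hbb-bs at 0.

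NK cell rows, 2 of 6 tested, summed to 424 to 798 CPM in transgenic libraries, against 15.3 to 26.2 CPM in knockout and 13.1 to 18.2 CPM in control libraries. The bulk of this was the Tyrobp row, at 421 to 794.5 CPM in transgenic libraries, which lies beside Nfkbid at 30.4 Mb on chromosome 7. Ncr1, the NK cell receptor NKp46, was at 0.839 CPM or less in every library, and Klra8 was at 0. The part of other cells in the Foxp3 values was not tested. The T cell identity list had 7 of 10 rows tested and no call in any comparison. With 7.39%, 1.89% and 10.7% of all rows passing in the 3 comparisons, 0 of 7 is near the background. Its untested rows included Cd3e, at 3.09 CPM or less, and Cd2, at 1.35 CPM or less, though the cells were CD4+ enriched. A marker row at or near 0 therefore does not show that its cells were absent.

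Rows that varied most like Foxp3 were sought among 377 tested protein-coding rows that start in the first 10 Mb and average at least 5 on the log2 CPM scale. Over the 17 libraries the highest Pearson r of log2 CPM with Foxp3 was 0.81 for Eef1g, a subunit of translation elongation factor 1. It was followed by 0.79 for Pcnx3, 0.76 for Pag1, a membrane adaptor that anchors the kinase Csk, 0.75 for Ap5b1, a subunit of an adaptor protein complex, 0.73 for Slx4, a scaffold of DNA repair nucleases, and 0.73 for Ezr, which links actin to the membrane. With group means taken out, the highest were 0.84 for Tab2, an adaptor of the kinase TAK1, 0.79 for Eef1g, 0.72 for Pcnx3, 0.71 for Dmtf1, 0.71 for Ap5b1 and 0.70 for Sipa1, a Rap GTPase-activating protein.

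The r values were lower without the libraries lowest in Foxp3. Leaving these out narrows the range of Foxp3, and the rows were picked for a high r with them in. A drop in r is therefore no separate result. Without knockout 2 and 5, the libraries farthest from the Foxp3 median, r over 15 libraries was 0.68 for Eef1g, 0.59 for Pcnx3 and 0.56 for Pag1. Without transgenic 1 as well, r over 14 libraries was 0.43 for Eef1g, 0.28 for Pcnx3, 0.15 for Pag1, -0.15 for Ap5b1, -0.13 for Slx4 and 0.16 for Ezr. Flicr likewise had r of 0.79 over 17, 0.50 over 15 and -0.24 over 14 libraries. These r values share libraries and scaling factors and are descriptions only.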

How the data were processed

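Polyadenylated RNA of sorted splenic Tregs was sequenced in reads of 67 bp with identifiers of 9 bp, at about 27 M reads a library, per the labels. The table the authors deposited holds expected counts of each gene in 17 libraries. Alignment used Bowtie2, GRCm38 and Ensembl 102 transcripts, per the labels' protocols. Nothing in the sources used here says how the identifiers were used, so the floor of 3 counts covers counting error only. Of 47643 rows, 47224 matched the GRCm38 annotation used here. Expected counts, 5.87% of them not whole, were rounded to whole numbers.

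Comparisons rest on the quasi-likelihood F test of edgeR 4.0.16 (R 4.3.3) with TMM factors, filterByExpr and all 17 libraries in 1 fit, adjusted by Benjamini-Hochberg over 9986 rows, and was tested on simulated data. Exact permutation tests used SciPy 1.17.1. DESeq2 1.42.0, limma 3.58.1 with voom, other normalizations and filters, a replicate block, fits to 2 groups, unrounded counts and each library left out were alternatives. Leaving out 3 libraries with a TMM factor under 0.9, or 4 below 0 on component 1, was added after seeing the data. Library names carry codes that differ between libraries, but the labels do not say that these are animals, so p-values measure the spread between libraries. A running number beside these codes was lower in all transgenic than in all knockout libraries, and what it marks is not stated. Among controls, this number lay within the transgenic range in replicates 1 and 2 and above it in replicates 3 to 6. Within each group, every pair of libraries differed by more than sampling noise.

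Foxp3 and the lists were chosen with earlier results of these data known. Rows named are Foxp3, rows within 100 kb, FOXP paralogs, called list members (or the 2 with the smallest p), and the 6 most like Foxp3 before and after removing group means. Other rows named are list members in the first 10 Mb and Rel, chosen after their values were seen. Some rows that these rules name are not reported here.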

Additional observations from a re-analysis of the deposited data

Results flagged for a closer look

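In 6 of 45 sets of 1 measure in 1 group, 1 library was farther from its nearest neighbour than the group's range would usually hold (Dixon's test at 95%). Chance flags about 1 in 20 such groups. Transgenic 1 accounted for 5 of them. Its Foxp3 row had 246.2 CPM on library totals, against 315.0 to 346.7 CPM in the other 5 transgenic libraries, and its Flicr row had 298.5 TMM-scaled CPM, against 587.6 to 706.7. Its Prickle3 row was high, at 471.9 CPM, against 253.6 to 330.0 in the others. Its TMM factor was 0.864, against 0.995 to 1.04, and it lay at -29.06 on component 1, against 14.5 to 34.2. Control 1 had the highest total, 4726615 counts, and 325.8 TMM-scaled CPM of Foxp3, the lowest of the controls. What sets transgenic 1 apart was not tested.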

How the results depend on the processing

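Foxp3 passed the threshold in none of the 30 alternatives for each pair of groups, nor in the 27 for all 3 groups. Its log2 fold change ran from -0.18 to -0.08 in transgenic against control (adjusted p 0.305 to 0.700) and from -0.27 to -0.03 in knockout against control (0.212 to 0.920). In transgenic against knockout it turned negative under upper quartile factors (-0.019), without libraries with a TMM factor under 0.9 (-0.052) or below 0 on component 1 (-0.037), and, with 1 library left out, ran from -0.035 to 0.078; the cause was not tested. With 1 library left out, the first 2 comparisons ran from -0.14 to -0.09 and from -0.20 to -0.09. Replicate numbers did not pair the libraries (1 of 16 correlations was over 0.1), and with a replicate block Foxp3 was at -0.12 and -0.15 (adjusted p 0.605 and 0.432).

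Counts of rows called moved more, and why was not tested. Transgenic against control had 738, against 1226 with these 2 groups alone, 1280 without low TMM factors, 1630 without low component 1 values, and 529 to 876 with 1 library left out. Knockout against control had 189, against 529 with no filter, 575 by DESeq2, 76 with 2 groups alone, 67 with the block, 117 without low component 1 values, and 87 to 1118 with 1 library left out. Transgenic against knockout had 1065, against 632 with 2 groups alone, 670 with the block, and 735 to 1641 with 1 library left out. The 792 to 1568 Foxp3 counts per library leave a counting error of 2.80% to 3.13% by group, below the spread between libraries, which was 4.48% to 13.1%. By direction, with 1 library left out, higher and lower calls ran from 389 to 596 and 140 to 280, from 29 to 590 and 54 to 528, and from 473 to 814 and 262 to 827 in these 3 comparisons.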

Other observations

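Among the 9985 other tested rows, 68 (0.681%) had a Pearson r of at least 0.8 with the Foxp3 row over the 17 libraries and 13 (0.130%) had one of -0.8 or below. The 14 libraries without transgenic 1 and knockout 2 and 5 span a narrower range of Foxp3. Over these, 7 rows had an r of at least 0.8, and 1 row did so in both sets. The Eef1g row, highest by r near chromosome starts, averaged 59.0 ± 6.05 CPM in transgenic, 62.0 ± 10.3 in knockout and 68.5 ± 5.35 CPM in control libraries (SD, n = 6, 5 and 6).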
